A study of Mus musculus with 60 samples.

Results

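Rhox5, Rhox6 and Rhox9 were followed through 6 stages of mouse preimplantation development, in embryos conceived in vivo and in embryos made by nuclear transfer (NT). Their 3 rows were taken by symbol from the table of 27238 genes, and Rhox5 was chosen by its RPKM values, which were higher in NT morulas and blastulas than in the in vivo embryos, so its values in those contrasts are described here without a test. Rhox6 and Rhox9 were taken as its neighbours in the cluster. The 60 libraries comprised 20 groups of 3, and each embryo library came from 1 whole embryo. In vivo embryos came from C57BL/6 females mated with DBA2 males. NTC embryos carried the nucleus of a cumulus cell (CC) of a BDF1 female, and NTM embryos carried the nucleus of a BDF1 embryonic fibroblast (MEF) from fetuses. Both kinds of NT embryo were reconstructed in enucleated BDF1 oocytes, activated with strontium and cytochalasin B, treated with the histone deacetylase inhibitor Scriptaid and cultured in vitro, so that nuclear transfer, drug exposure and culture cannot be told apart in any NT against in vivo comparison. All the embryos were selected by morphology, and the donor CCs and MEFs were sequenced as well. Of the marker genes checked, Cyp11a1 (157 to 662 RPKM, reads per kilobase of exon scaled to the reads on genes of each library) marked the CCs, whereas Has2 and Cyp19a1 were listed at 0 in all 3 of them, and Col1a1 (2140.0 to 3335 RPKM) marked the MEFs. Other genes of the CC marker list did not separate the donor cells: Ptx3 was higher in MEFs (406 to 1003 RPKM) than in CCs (0.436 to 14.3 RPKM). Ptgs2 had 19.7, 20.1 and 69.4 RPKM in the CCs and 20.7, 21.2 and 47.6 RPKM in the MEFs, and Tnfaip6 had 105, 248 and 63.7 RPKM in the CCs and 88.2, 178 and 62.1 RPKM in the MEFs, so that CC and MEF libraries of the same number had similar levels of both.

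The Rhox genes (reproductive homeobox genes on the X chromosome) encode homeodomain transcription factors that are used mainly in the placenta, the testis and the ovary. Rhox5, long known as Pem, is the founding member and is expressed in trophoblast, in Sertoli cells and in granulosa cells. In preimplantation embryos it is known to be transcribed mainly from the X chromosome inherited from the father, and in somatic and embryonic stem cells it is held silent by DNA methylation and by the histone methyltransferase G9a. Rhox6 and Rhox9, first described as Psx1 and Psx2, are placental homeobox genes that arose by duplication.

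In the GRCm38 build with the GENCODE M21 annotation, Rhox5 (ENSMUSG00000095180) spans chrX:37804842-37808876 on the plus strand, Rhox6 (ENSMUSG00000006200) spans chrX:37826910-37829857 on the plus strand and Rhox9 (ENSMUSG00000068048) spans chrX:37899097-37901770 on the minus strand. All 3 are protein-coding genes, and the values count reads over all of their exons, untranslated parts included. To show how far the 3 transcripts can be told apart, the 60 coding bases that end with the recognition helix of the homeodomain are given here from the GENCODE transcripts, 5′ to 3′, with capitals for bases that differ from Rhox5.
Rhox5: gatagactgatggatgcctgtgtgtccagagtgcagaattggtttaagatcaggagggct
Rhox6: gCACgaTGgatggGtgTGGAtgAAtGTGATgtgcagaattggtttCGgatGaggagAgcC
Rhox9: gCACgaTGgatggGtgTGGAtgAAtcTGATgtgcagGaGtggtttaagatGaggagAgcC
Within this window Rhox6 differed from Rhox5 at 22 bases and from Rhox9 at 5. Over the whole coding sequence 90.6% of the aligned bases were the same in Rhox6 and Rhox9, against 62.7% for Rhox5 and Rhox6 and 67.1% for Rhox5 and Rhox9. Rhox6 and Rhox9 shared a run of 161 bases, and 12 of the 861 possible 150-base reads of the Rhox6 transcript also occurred in Rhox9. The longest run that Rhox5 shared with either was 15 bases, so 150-base Rhox5 reads were distinct from those of Rhox6 and Rhox9, while a few reads of the other pair could be assigned to either gene. Transcripts of other genes were not compared.

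Rhox5 was silent at the start in every type of embryo. It was listed at 0 in all 6 donor cell libraries and in all 9 1-cell embryos, and a count of 0 reads there allows at most 0.0832 to 0.393 RPKM (3 reads in that library, which covers counting error only). The 1-cell stage holds the maternal store of the oocyte together with the first transcripts, so no Rhox5 RNA was detectable from either source at this depth.

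At the 2-cell and 4-cell stages Rhox5 appeared in single embryos. In vivo 2-cell embryos were all at 0, NTC 2-cell embryos had 0.449, 0 and 0.251 RPKM (4, 0 and 1 reads), and NTM 2-cell embryos had 4.53, 0 and 0 RPKM. In vivo 4-cell embryos had 0, 0 and 1.95 RPKM, NTC 4-cell embryos were all at 0, and NTM 4-cell embryos had 22.6, 0 and 3.24 RPKM. Thus 1 of 3 in vivo, 0 of 3 NTC and 2 of 3 NTM embryos held Rhox5 reads at the 4-cell stage, and the groups overlapped. By limma, which was used for all adjusted p-values here and which fits log2(RPKM + 1) across all genes with a mean of at least 0.5 RPKM, the 4-cell NTM embryos showed no detectable difference from in vivo (log2 difference 1.69, SE 1.10, adjusted p = 0.310) or from NTC embryos (2.21, SE 1.04, adjusted p = 0.814). At the 2-cell stage the NTM embryos likewise showed no detectable difference from in vivo (0.82, SE 0.74, limma adjusted p = 0.721), where 0.141% of all genes tested passed the call (adjusted p under 0.05 and a log2 difference of at least 1). At the 4-cell stage 21.1% passed between NTM and in vivo embryos, and 0% between NTM and NTC embryos.

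By the 8-cell stage all 9 embryos expressed Rhox5. The in vivo embryos had 14.8, 7.81 and 1.37 RPKM (8.00 ± 6.73, SD, n = 3), the NTC embryos 18.1, 3.48 and 70.0 RPKM (30.5 ± 34.9) and the NTM embryos 4.55, 13.7 and 2.99 RPKM (7.08 ± 5.78). The 3 types overlapped, and 1 NTC embryo lay far above the rest. The lowest in vivo and the lowest NTM value came from libraries of 5802776 and 5758141 reads, against a median of 14718210 for embryos, and rested on 6 and 13 reads.

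From the 4-cell to the 8-cell stage Rhox5 rose in the in vivo embryos by 2.27 on the log2 scale (SE 0.77, limma adjusted p = 0.0439), although the highest 4-cell value (1.95 RPKM) exceeded the lowest 8-cell value (1.37 RPKM). Of all genes tested in this transition, 4.4% rose and 39.3% fell, with a median log2 difference of -1.05. The embryos of the 4-cell and 8-cell stages also differed in Y-linked RNA, as given below. Without 8-cell embryo 1 the increase was 1.67 (adjusted p = 0.116), without 8-cell embryo 2 it was 2.09 (adjusted p = 0.109), and without 4-cell embryo 1 or 2 it was 2.01 (adjusted p = 0.153 and 0.152), so the call was lost when any of these 4 libraries was left out.

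In NTC embryos the same transition took Rhox5 from 0 in all 3 libraries to 3.48 RPKM or more. The fitted difference of 4.19 (SE 0.92) had an unadjusted p of 0.000724 and a limma adjusted p of 0.118, in a transition where 0.0564% of genes passed the call. In NTM embryos the difference was 0.57 (SE 1.07, limma adjusted p = 0.844), or -0.54 (adjusted p = 0.787) without NTM 4-cell embryo 2, where 0.363% passed. The 4-cell to 8-cell change did not differ detectably between NTC and in vivo embryos (difference of log2 changes 1.92, SE 1.28, limma adjusted p = 0.322) or between NTM and in vivo embryos (-1.70, SE 1.47, adjusted p = 0.459), although 19.5% and 18.7% of genes passed in those comparisons. Both differences changed sign when 1 embryo number was left out, to -0.35 without number 3 (adjusted p = 0.858) and 0.48 without number 1 (adjusted p = 0.867). At the 8-cell stage itself Rhox5 was not detectably different from in vivo in NTC (1.40, SE 0.98, limma adjusted p = 0.417) or NTM embryos (-0.0064, SE 0.76, adjusted p = 0.997), where 1.46% and 2.02% of genes passed. With errors of this size, several-fold differences would not have been detectable.

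**Figure D1:**
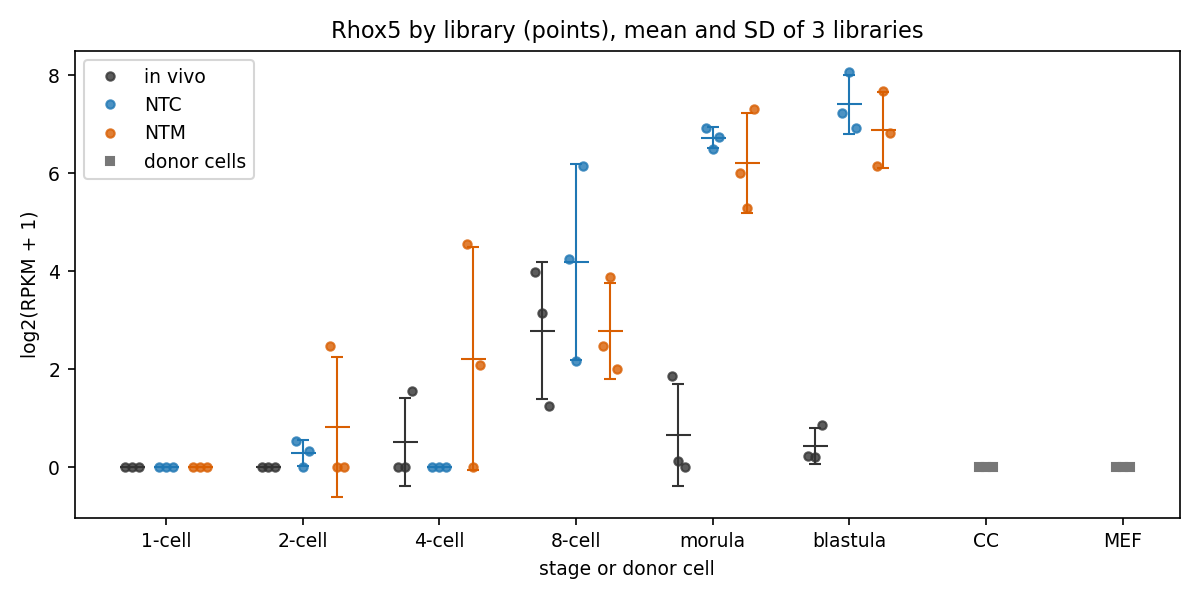
Rhox5 level as log2(RPKM + 1) (vertical axis) in each of 60 libraries, by stage and donor cell (horizontal axis); points are single embryos or donor samples, horizontal ticks are group means and bars are SD of 3 libraries. The embryo types overlap up to the 8-cell stage, while at the morula and blastula stages the 12 NT embryos (38.2 to 268 RPKM) lie above the 6 in vivo embryos (0 to 2.64 RPKM).

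The paths then parted, which is the pattern that led to the choice of Rhox5 and is therefore given without a test. In vivo morulas had 2.64, 0.0905 and 0 RPKM, and in vivo blastulas had 0.169, 0.155 and 0.808 RPKM. These values rest on 38, 1 and 0 reads and on 2, 1 and 7 reads, so most lie at or below the 3-read limit of their library. Rhox5 was therefore close to undetectable in most in vivo embryos after the 8-cell stage. Morula 1 (limit 0.209 RPKM) and blastula 3 (limit 0.346 RPKM) were above their limits. Mitochondrial reads made up 64.2% of the reads of morula 1, against 30.8% and 29.6% in the other in vivo morulas and 28.1% to 57.0% in NT morulas.

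In NT embryos Rhox5 was at a far higher level. NTC morulas had 121, 89.8 and 107 RPKM (106 ± 15.7, SD, n = 3) and NTM morulas 63.4, 38.2 and 159 RPKM (86.7 ± 63.5). NTC blastulas had 150, 268 and 120.0 RPKM (179 ± 78.1) and NTM blastulas 70.2, 205 and 112 RPKM (129 ± 68.8). These 12 values rest on 553 to 3841 reads each.

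At the log2(RPKM + 1) scale, the difference from in vivo was 6.06 in NTC and 5.54 in NTM morulas, and 6.98 in NTC and 6.46 in NTM blastulas. As ratios of mean RPKM these are 116-fold, 95.1-fold, 475-fold and 341-fold, but the denominators rest on a handful of reads. In each of the 12 NT embryos Rhox5 ranked between 139 and 790 among all genes by RPKM, while in the 5 in vivo embryos with any read it ranked between 4086 and 9592. Values did not overlap between NT and in vivo. Of the genes tested, 15.3% (NTC) and 5.82% (NTM) were higher in all 3 NT morulas than in all in vivo morulas, and 30.6% and 28.4% in blastulas. Passing the call was rarer, with 0.0321% (NTC) and 0.0558% (NTM) of genes higher and 0% and 0.112% lower in morulas, and 8.81% and 0.565% higher and 0.657% and 0.181% lower in blastulas. With median-ratio scaling the calls in blastulas were 67 higher and 63 lower in NTC, in place of 818 and 61, and 2 higher and 16 lower in NTM embryos, in place of 53 and 17. In morulas they were 11 and 9 in NTC, in place of 3 and 0, and 6 and 9 in NTM embryos, in place of 5 and 10. A whole embryo does not tell whether more cells held Rhox5 RNA or each cell held more of it.

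The 2 kinds of NT embryo were not detectably different in Rhox5. Rhox5 was chosen on NT against in vivo contrasts. Those contrasts used the same NT morula and blastula values, so the tests at these stages are not independent of the choice. NTM minus NTC was -0.52 (SE 0.47, limma adjusted p = 0.582) in morulas and -0.52 (SE 0.46, adjusted p = 1.00) in blastulas. At the 8-cell stage it was -1.41 (SE 0.89, adjusted p = 0.509) and at the 2-cell stage 0.54 (SE 0.75, adjusted p = 0.898). From the 2-cell stage on, at most 0.0507% of genes passed the limma call between NTM and NTC embryos (0 genes at the 2-cell, 4-cell, morula and blastula stages, where 772, 602, 1534 and 315 had an unadjusted p under 0.05).

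Libraries also differed in the transcripts that mark the sex chromosomes. The summed level of the Y-linked genes Ddx3y, Eif2s3y, Kdm5d and Uty was below 1 RPKM in all 18 NTC embryos, whose donor cells came from females, and reached 1 RPKM or more in 6 of 18 in vivo and 5 of 18 NTM embryos. Among in vivo morulas the sums were 0.25, 64.5 and 45.9 RPKM, and among in vivo blastulas 0.0275, 73.0 and 36.5 RPKM. The in vivo morula and blastula with a low Y-linked sum had 2.64 and 0.169 RPKM of Rhox5, so the morula with the most Rhox5 in vivo was the only one without clear Y-linked RNA, while the blastula without it lay between the 0.155 and 0.808 RPKM of the others.

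In NT embryos high Rhox5 occurred with and without Y-linked RNA. The NTM morula with a Y-linked sum of 20.7 RPKM had 63.4 RPKM of Rhox5, between the 38.2 and 159 RPKM of the morulas with a sum of 0. All 6 NT blastulas had a Y-linked sum of at most 0.0186 RPKM, against 1 of 3 in vivo blastulas whose sum was also low. Among morulas 2 of 3 in vivo, 0 of 3 NTC and 1 of 3 NTM embryos reached a sum of 1 RPKM or more. Sex chromosome content and embryo type are therefore partly confounded at both stages. At the 4-cell stage the only in vivo embryo with Rhox5 was the one with a low Y-linked sum (0.0346 RPKM, against 29.1 and 41.9 in the others), whereas both NTM 4-cell embryos with Rhox5 had high sums (52.3 and 46.2 RPKM). All 3 in vivo 8-cell embryos had a low sum (0, 0 and 0.0331 RPKM). At the 4-cell, morula and blastula stages 2 of 3 in vivo embryos reached 1 RPKM or more. Sex chromosome content thus differed between stages in vivo. The part of embryo sex in the Rhox5 differences between embryo types or between stages was not tested.

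**Figure D2:**
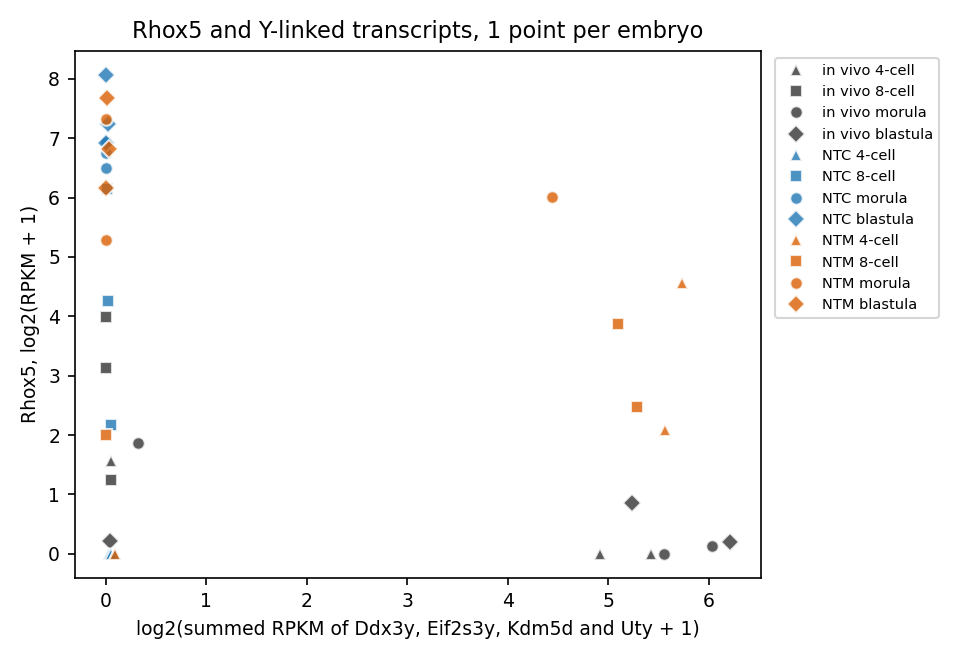
Rhox5 level (vertical axis, log2(RPKM + 1)) against the summed level of 4 Y-linked genes (horizontal axis, log2(summed RPKM + 1)); each point is 1 embryo of the 4-cell to blastula stages, coloured by embryo type and shaped by stage. In vivo morulas and blastulas stay low on the vertical axis whether their Y-linked sum is below 1 RPKM or between 36.5 and 73.0 RPKM, and the NTM morula with a sum of 20.7 RPKM lies among the other NT morulas.

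Xist, the non-coding RNA that coats and silences the inactive X chromosome, was also listed at unlike levels in NT and in vivo morulas and blastulas. It did not pass the limma call in any of these contrasts. Xist was between 0 and 0.129 RPKM in in vivo morulas and between 0 and 0.00355 RPKM in in vivo blastulas. In NT morulas it lay between 0.224 and 7.80 RPKM and in NT blastulas between 0.707 and 3.52 RPKM, so that every NT value exceeded every in vivo value of the same stage. With each NT type taken alone, the same held for 15.3% (NTC) and 5.82% (NTM) of all genes tested in morulas, and for 30.6% and 28.4% in blastulas. The share for both NT types together was not computed. The lowest NT morula value was that of the NTM morula with Y-linked RNA, against 5.68 and 7.80 RPKM in the other NTM morulas. No gene of the X inactivation centre list (Xist, Tsix, Jpx, Ftx and Rlim) passed the limma call in these 4 contrasts (adjusted p for the 2 or 3 members tested). Numbers of genes detected differed as well, with 7730 to 7808 genes above 0 in in vivo blastulas and 11498 to 13568 in NT blastulas, and the mitochondrial share of reads ran from 20.4% to 50.4% in NT and from 20.5% to 34.9% in in vivo blastulas. Their part in the Rhox5 values was not tested.

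Rhox9 had a different pattern, with more reads in vivo than in NT embryos. It was at 0 in all donor cells, in all 1-cell and 2-cell embryos and in all blastulas. In vivo 4-cell embryos had 0.0306, 0 and 11.5 RPKM, in vivo 8-cell embryos 0.505, 2.42 and 0.346 RPKM, and in vivo morulas 1.94, 0 and 0 RPKM. NTC embryos had 0.330, 0.0480 and 1.05 RPKM at the 8-cell stage and 0, 0 and 0.0306 RPKM in morulas. The highest level thus sat in 1 in vivo 4-cell embryo (469 reads), and the only NTM embryo with reads was 1 8-cell embryo at 0.0424 RPKM (2 reads).

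The 4-cell embryo with high Rhox9 was the same one that held Rhox5, lacked Y-linked RNA and had 6.89 RPKM of Xist. The in vivo morula with Rhox9 was also the one with the most Rhox5 and little Y-linked RNA. These are 2 embryos, chosen after their values were seen.

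None of the 11 limma tests on Rhox9 passed, and 0 reached p under 0.05 before adjustment. At the 4-cell stage the log2 difference from in vivo was -1.23 for NTC (SE 0.92, limma adjusted p = 0.354) and for NTM embryos (SE 0.94, adjusted p = 0.389), where 27.8% and 21.1% of all genes passed. The difference is the same because Rhox9 was at 0 in all 6 NT 4-cell embryos, and it rests on 1 in vivo embryo, without which the mean of Rhox9 was too low for a test. At the 8-cell stage the differences were -0.43 for NTC (SE 0.62, adjusted p = 0.697) and -0.91 for NTM embryos (SE 0.51, adjusted p = 0.357). The in vivo changes were 1.23 from the 2-cell to the 4-cell stage (SE 0.96, adjusted p = 0.307), -0.30 from the 4-cell to the 8-cell stage (SE 0.97, adjusted p = 0.820, and 0.91 with adjusted p = 0.191 without 4-cell embryo 3, and above 0 also under another pseudocount and another scaling) and -0.41 from the 8-cell stage to the morula (SE 0.67, adjusted p = 0.838), in transitions where 52.2%, 43.7% and 0.0116% of genes passed.

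Rhox6 was almost absent. It had reads in 3 of 60 libraries, all of them NTC: 1 8-cell embryo (0.650 RPKM, 11 reads), 1 morula (0.107 RPKM, 2 reads) and 1 blastula (0.0520 RPKM, 1 read). Its mean stayed under the 0.5 RPKM needed for a test in every comparison, and in the other 57 libraries a count of 0 allows up to 0.0621 to 0.561 RPKM. The embryo with the most Rhox6 had 0.0480 RPKM of its near-copy Rhox9. Of the 3 genes, Rhox5 alone showed the high NT level; in morulas and blastulas Rhox6 and Rhox9 had at most 0.107 and 0.0306 RPKM in NT embryos.

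**Figure D3:**
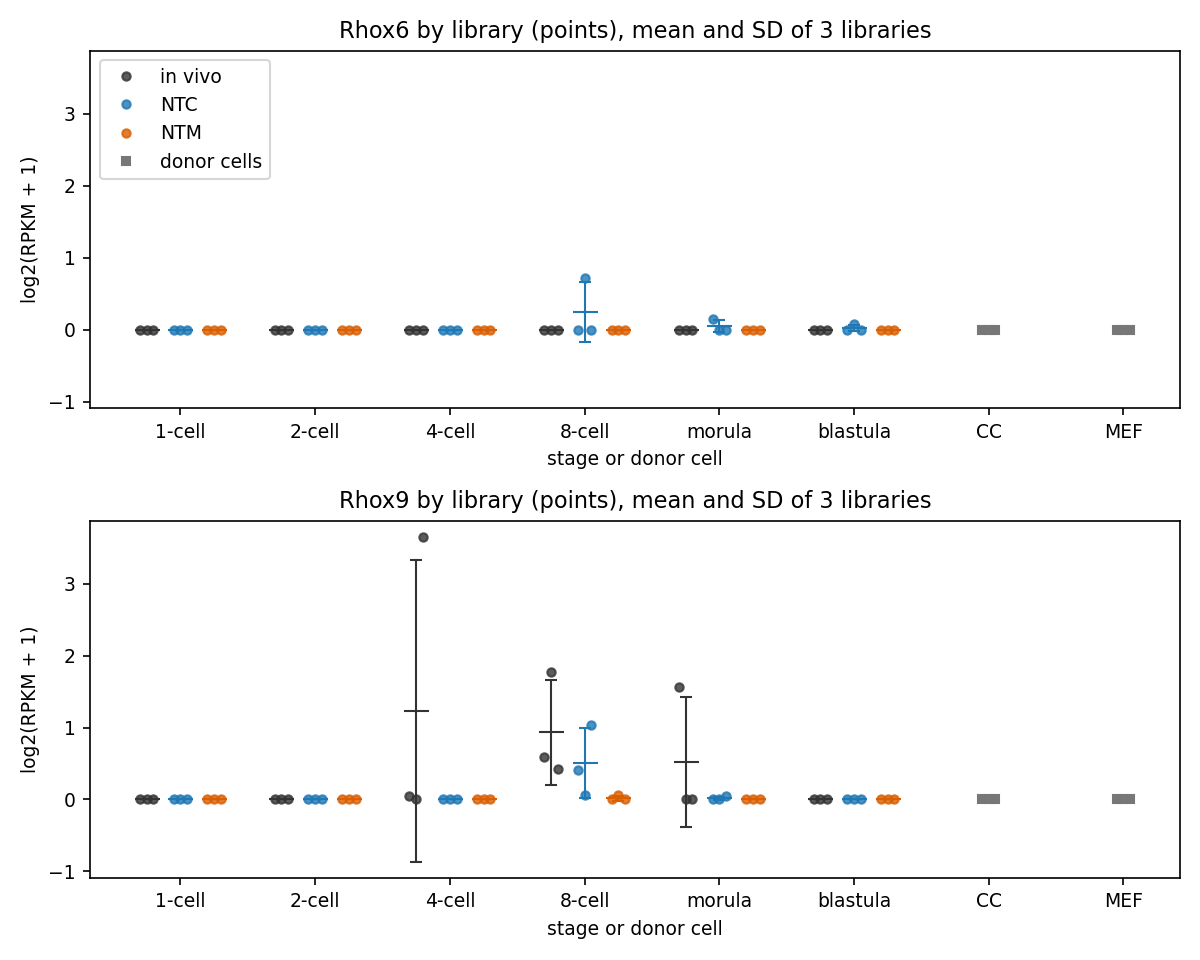
Rhox6 (upper panel) and Rhox9 (lower panel) as log2(RPKM + 1) (vertical axes) in each of 60 libraries by stage and donor cell (horizontal axes); points are single libraries, ticks are means and bars are SD of 3 libraries. Rhox6 leaves 0 in only 3 NTC embryos, and the highest Rhox9 value (11.5 RPKM) is that of 1 in vivo 4-cell embryo.

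The other Rhox genes did not share the level of Rhox5. The annotation holds 39 of them next to the 3 described, of which 17 had a row. Rhox8, a gene of granulosa and Sertoli cells, had 21.7, 0.0263 and 0 RPKM in the CCs, so that 1 CC library stood apart. In NT morulas and blastulas the highest value of any other Rhox gene was 1.28 RPKM, for Rhox2-ps in 1 NTM blastula. No other Rhox gene passed the call in any comparison, and at most 2 of the 17 had a mean high enough for a test. The in vivo 4-cell embryo with high Rhox9 also held reads of Rhox7-ps2 (6.09 RPKM), Rhox3b-ps (2.75), Rhox2-ps (2.66) and Rhox1 (1.32), of which the first 3 were at 0 in the other 4-cell in vivo embryos. The highest value of any other Rhox gene in an embryo was that of Rhox7-ps1 (9.62 RPKM). It came from NTC 4-cell embryo 1, which was at 0 for Rhox5 and Rhox9.

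The protein-coding genes that flank the cluster were examined next, 10 on each side, 17 of them with a row. In morulas none of the 11 (NTC) or 10 (NTM) tested passed in either direction, with median log2 differences of 0.47 and -0.96 against 0.26 and -0.14 for all genes. Among NTC blastulas 1 of 10 was higher, where 8.81% of all genes were, and among NTM blastulas 0 of 9, with medians of 0.56 and 1.09 against 0.85 and 0.86. The gene that passed was Lamp2, which encodes a lysosomal membrane protein (11.9, 14.6 and 26.6 RPKM in NTC and 3.55, 0.110 and 0.237 RPKM in in vivo blastulas; log2 difference 3.27, SE 0.77, limma adjusted p = 0.0431), a call lost under 8 of 12 alternatives. This was the highest difference among the neighbours in NTC blastulas, against 6.98 for Rhox5. At the earlier stage where Rhox5 rose in vivo, from 4-cell to 8-cell, 1 of 12 neighbours rose (Nkap, which encodes a transcriptional regulator, by 1.35, SE 0.42, limma adjusted p = 0.0315) and 5 fell (Rpl39, Ndufa1, Gm9, Lamp2 and Cul4b), where 4.4% and 39.3% of all genes did.

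Across the rest of the X chromosome, with the 3 genes described left out, 0 of 297 genes tested were higher or lower in NTC morulas by the limma call (0.0321% of all genes were higher), with 0 to 12 higher over 12 alternatives. In NTM morulas 1 of 274 was higher and 3 were lower, where 0.0558% and 0.112% of all genes were. The higher gene was Tceal8 (log2 difference 3.43, SE 0.57, limma adjusted p = 0.0404), while Mospd1 (-2.63), Magt1 (-3.39) and Lonrf3 (-3.68) were lower, and each of these 4 calls was lost under 6 to 8 of 12 alternatives. In NTC blastulas 17 of 301 were higher and 3 lower, where 8.81% and 0.657% of all genes were, and the count of higher genes ran from 0 to 56 over 12 alternatives. In NTM blastulas 2 of 300 were higher and 0 lower, where 0.565% and 0.181% of all genes were. The median difference of X-linked genes was 0.34 and -0.64 in NTC and NTM morulas and 0.67 and 0.54 in blastulas, against 0.26, -0.14, 0.85 and 0.86 for all genes.

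Acot9, an acyl-CoA thioesterase, and Siah1b, a ubiquitin ligase, were the X-linked genes, of those other than Rhox5, that passed in both kinds of NT blastula. Acot9 had 0, 2.00 and 0.153 RPKM in vivo, 33.9, 60.03 and 81.6 RPKM in NTC and 79.0, 72.9 and 42.0 RPKM in NTM blastulas, with log2 differences of 5.21 (SE 0.72, limma adjusted p = 0.0250) and 5.39 (SE 0.75, adjusted p = 0.0494). Its call was lost under 2 (NTC) and 7 (NTM) of 12 alternatives. Siah1b differed by 3.52 (SE 0.77, limma adjusted p = 0.0379) and 3.91 (SE 0.64, adjusted p = 0.0494), and its call was lost under 8 of 12 alternatives in each contrast. Mospd1 (4.18) and Tceal9 (4.73) were also higher in NTC blastulas. Both NT groups were set against the same 3 in vivo embryos, so that these calls are not independent.

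**Figure D4:**
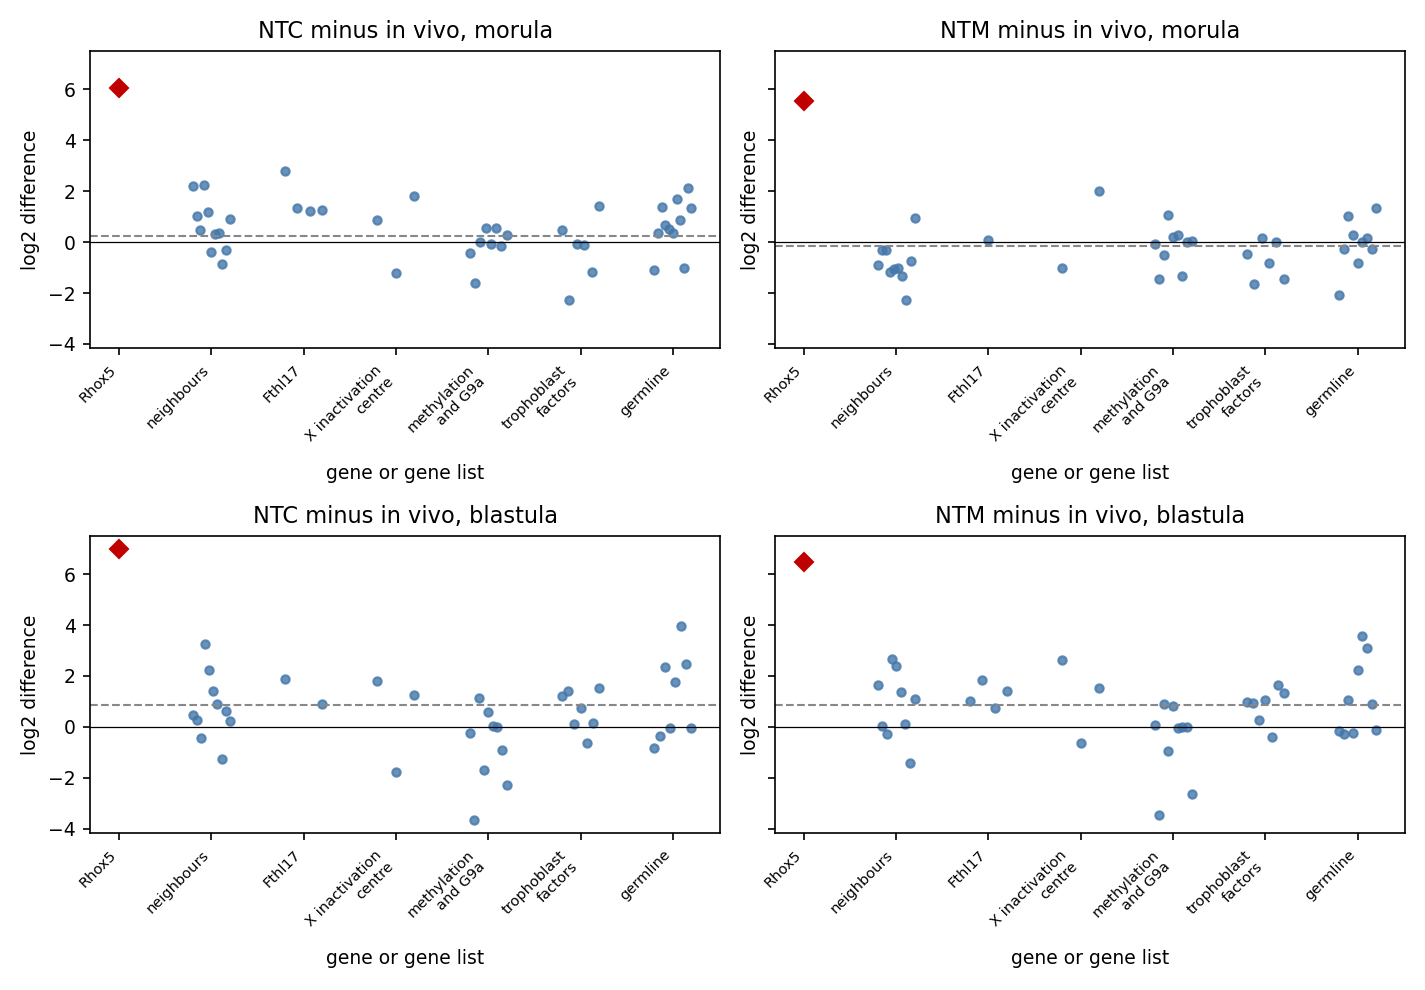
Difference between NT and in vivo embryos in log2(RPKM + 1) (vertical axes) for Rhox5 (diamond) and for the tested genes of 6 lists (circles, horizontal axes), with NTC on the left, NTM on the right, morulas above and blastulas below; dashed lines are the median of all genes tested. Rhox5 (5.54 to 6.98) lies above every gene of the 6 lists in each panel, a position that its choice fixes in part.

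The Fthl17 genes, ferritin-like X-linked genes that are known for expression from the paternal X chromosome in early female embryos, were compared because Rhox5 shares that property. None passed against in vivo embryos at the 4-cell, 8-cell, morula or blastula stage. In the change from 4-cell to 8-cell embryos, 1 of 6 passed between NTC and in vivo, where 19.5% of all genes did: Fthl17a was at 0 in NTC 4-cell embryos and at 15.6, 1.14 and 20.8 RPKM in NTC 8-cell embryos, against at most 0.413 RPKM in vivo (difference of log2 changes 3.07, SE 0.97, limma adjusted p = 0.0411). Fthl17f had 7.54, 18.1 and 7.28 RPKM in NTC morulas, 0, 2.15 and 0.505 RPKM in NTM morulas and 3.10, 0 and 0 RPKM in in vivo morulas. As with Rhox5 and Rhox9, the in vivo value came from the morula with little Y-linked RNA. In the in vivo 4-cell embryos Fthl17c, Fthl17d, Fthl17e and Fthl17f had 3.53, 6.01, 6.05 and 7.96 RPKM in embryo 3, which held Rhox5 and Rhox9, and 0 in embryos 1 and 2. The other members did not share this: Fthl17b was at 0 in all of these embryos, and Fthl17a had 0.0804 RPKM in embryo 2 alone. In blastulas the medians of the tested members were 1.39 (NTC, 2 members) and 1.20 (NTM, 4 members), against 0.85 and 0.86 for all genes.

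Genes of DNA methylation and of G9a mostly did not pass the limma call. The list holds the machinery known to silence Rhox5, and also the Tet dioxygenases, which oxidise methylcytosine and are not part of that machinery. In morulas 0 of 8 (NTC) and 0 of 9 (NTM) tested passed, and in blastulas 1 of 9 and 0 of 9. The 1 that passed, lower in NTC blastulas as were 0.657% of all genes, was Tet2, a methylcytosine dioxygenase, with 36.8, 69.2 and 59.4 RPKM in in vivo blastulas and 3.01, 4.29 and 2.90 RPKM in NTC blastulas (log2 difference -3.64, SE 0.60, limma adjusted p = 0.0267). NTM blastulas had 6.34, 2.85 and 3.24 RPKM of Tet2, and their difference from in vivo did not pass. Uhrf1, which guides maintenance methylation, had 15.1, 28.6 and 28.1 RPKM in in vivo, 6.35, 4.42 and 1.95 in NTC and 6.69, 3.81 and 0.590 in NTM blastulas without passing. Dnmt1 was low at the blastula stage, at 0 to 0.124 RPKM in in vivo and 0.0920 to 3.28 RPKM in NT blastulas.

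Trophoblast transcription factors, which define the tissue where Rhox5 is used after implantation, were compared next. None of the 6 tested in morulas or 7 in blastulas passed in either NT type. Cdx2, the trophectoderm regulator, had 25.3, 75.8 and 10.2 RPKM in in vivo and 60.4, 51.2 and 8.83 RPKM in NTC blastulas, and 75.2, 114 and 81.1 RPKM in NTM blastulas, so that both NT groups overlapped in vivo. The mean of Eomes was 4.28 RPKM in vivo, 11.4 in NTC and 8.74 in NTM blastulas, and that of Tfap2c 7.93, 19.0 and 15.8 RPKM, also with overlap. Elf5 went the other way, with means of 2.83, 0.963 and 1.33 RPKM. Of the trophectoderm markers checked, Krt8 (320, 165 and 122 RPKM) and Krt18 (419, 212 and 168 RPKM) had lower means in NT blastulas, with overlap. The means of the other markers, Cdx2 and Gata3, were higher there. Of the inner cell mass markers checked, Sox2 had lower means in NT blastulas (13.1, 0.935 and 1.85 RPKM in vivo, in NTC and in NTM). Those of Pou5f1 (2.10, 5.12 and 5.20 RPKM) and Nanog (70.0, 119 and 103 RPKM) were higher. A difference in lineage or timing between the blastulas was not tested. Of the 7 factors, 6 had a positive difference in each contrast, with medians of 0.73 (NTC) and 0.97 (NTM) against 0.85 and 0.86 for all genes, and up to 1 passed under an alternative. Of 12 germline genes known to be silenced by promoter methylation, as Rhox5 is, 8 were tested in NTC blastulas and 1 was higher, where 8.81% of all genes were. That gene was Dpep3, a membrane dipeptidase of the testis, which had 19.4, 14.1 and 11.2 RPKM in NTC and 0.0379, 0 and 0 RPKM in in vivo blastulas (log2 difference 3.94, SE 0.55, limma adjusted p = 0.0250). NTM blastulas had 9.08, 24.9 and 5.46 RPKM of Dpep3. None of the germline genes passed in morulas.

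The genes whose 20 group means of log2(RPKM + 1) were most like those of Rhox5 were Slc36a3os (Pearson r = 0.944), Slc6a12 (0.938), Serpinb9b (0.913), Prl8a9 (0.913) and 4930444M15Rik (0.910), out of 18890 genes compared. The 20 points share the same 60 libraries and most early groups lie at 0 for all of them, so r is a description. Serpinb9b, a serine protease inhibitor gene, had 52.9, 75.7 and 45.8 RPKM in NTC blastulas, 24.2, 73.9 and 31.4 in NTM and 2.43, 1.26 and 2.89 in in vivo blastulas. Slc6a12, a betaine and GABA transporter gene, had 3.65, 3.72 and 3.66 RPKM in NTC blastulas. Prl8a9 belongs to the placental prolactin family. With the 18 embryo groups alone, 2 of the 5 names were kept, and with a pseudocount of 0.1 in place of 1, 4 of the 5.

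**Figure D5:**
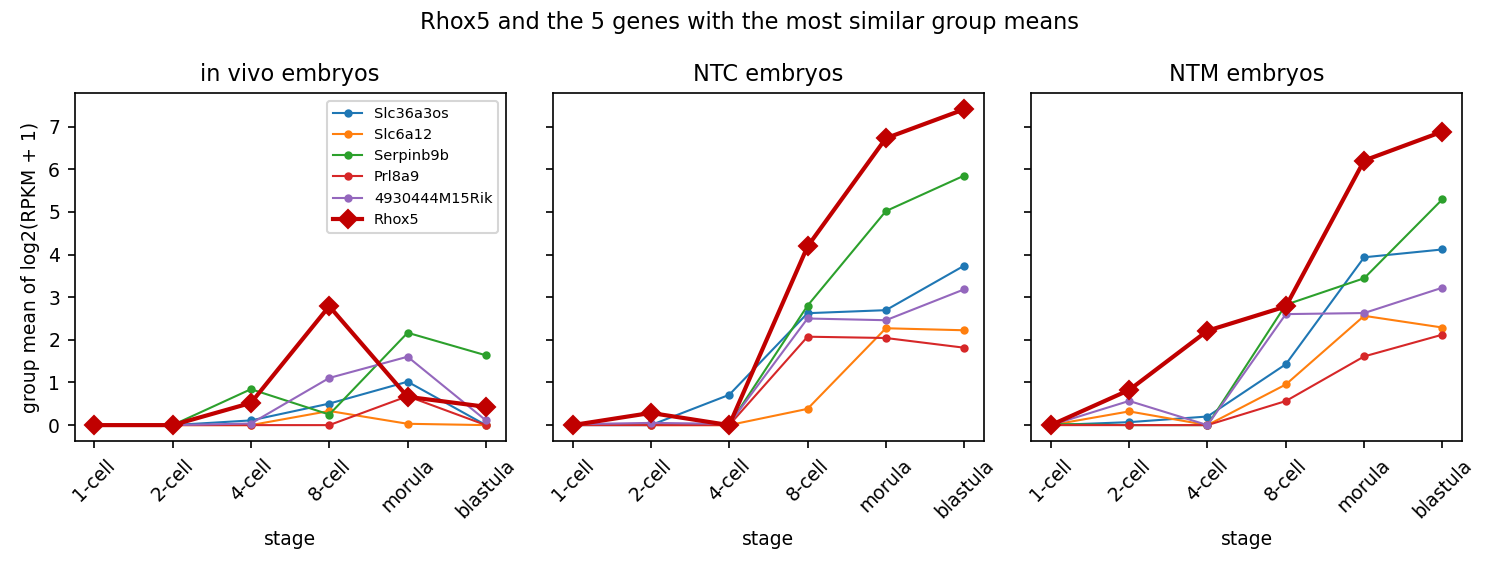
Group means of log2(RPKM + 1) (vertical axis) over 6 stages (horizontal axis) for Rhox5 (thick line, diamonds) and the 5 genes with the highest correlation to it, in in vivo (left), NTC (middle) and NTM embryos (right); each point is the mean of 3 libraries. Rhox5 reaches 7.41 in NTC and 6.89 in NTM blastulas and 0.43 in in vivo blastulas, and its peak in vivo is 2.79 at the 8-cell stage.

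For Rhox9 the most similar genes were Slc39a2 (r = 0.981), Gm26522 (0.943) and Cartpt (0.939), each with its highest group mean in in vivo 4-cell or 8-cell embryos. For Rhox6 they were Cacng1 (0.993), Gm23090 (0.992) and Gm29156 (0.991), which rests on the level of 1 group, NTC 8-cell. In that group the embryo with Rhox6 reads was not the one in which these genes were high: embryo 3 had 20.7 RPKM of Cacng1, 18.6 of Gm23090 and 15.6 of Gm29156, while the Rhox6 reads came from embryo 2.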

How the data were processed

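Single embryos were lysed, and their RNA was amplified without molecular identifiers and sequenced as 150-base read pairs. According to the study's methods the authors filtered reads, mapped them with TopHat v2.0.12 and Bowtie2 v2.2.3 and counted them with HTSeq v0.6.0, whereas the submitters' processing notes name Bowtie 0.12.2 and mm8, with no role stated. The deposited values are RPKM per Ensembl gene, and strand use in counting is not given in the sources used here. With GENCODE M21 exon lengths, 20621 of 27013 matched genes gave whole reads in every library (within 0.05 of a read), and the 3 Rhox genes were among them, so reads and depth could be recovered (5294167 to 47830132 reads on genes per library).

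From these values log2(RPKM + 1) was computed and pairs of groups of 3 were compared with limma 3.58.1 (lmFit and eBayes with trend, R 4.3.3) on genes with a mean of at least 0.5 RPKM, and p-values were adjusted by Benjamini and Hochberg over all genes tested. The fit was tested on simulated data. The homeodomain window was placed with a sequence pattern that was revised after a first pattern matched none of the 3 translated sequences. Labels describe 3 biological replicates per group. The members, lists (other Rhox genes, neighbours, X, Y, X inactivation centre, Fthl17, methylation and G9a, trophoblast, germline) and tests were chosen with earlier results of these data known. Named were, for each list, the genes that passed the call in the contrasts described, or the 4 with the highest mean RPKM where more passed, beside genes most correlated with a member (5 for Rhox5, 3 each for the others) and genes given as examples after their values were seen. No test result is given for Rhox5 in the contrasts that chose it, and the X list leaves out the 3 members. Alternatives were another pseudocount, no filter, median-ratio scaling, 1 fit over 20 groups, a replicate block, leaving out libraries and, added after seeing the data, scaling to nuclear reads.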

Additional observations from a re-analysis of the deposited data

How the results depend on the processing

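The increase of Rhox5 from in vivo 4-cell to 8-cell embryos kept its direction under every alternative run but lost the call with no filter on low values (2.27, limma adjusted p = 0.113) and with a replicate block (2.27, adjusted p = 0.0618). Leaving out 1 library gave 1.67 to 3.04. With 1 fit over all 20 groups the NTC 4-cell to 8-cell increase of Rhox5 passed (4.19, adjusted p = 0.000361), as did the Rhox9 differences at the 4-cell stage (-1.23 for NTC and NTM, adjusted p = 0.0236 and 0.0210) and the in vivo rise of Rhox9 from 2-cell to 4-cell (1.23, adjusted p = 0.0121). The untested Rhox5 differences at a pseudocount of 0.1 were 8.14 (NTC) and 7.60 (NTM) in morulas and 8.73 and 8.21 in blastulas. Median-ratio scaling gave 6.42 for NTC blastulas, where the median of all genes was 0.44 under that scaling and 0.85 without it. Leaving out 1 library gave 5.73 to 6.67 and 4.99 to 6.14 in morulas, and 6.65 to 7.22 and 6.06 to 6.82 in blastulas. Of the comparisons that did not pass, 8 changed sign under at least 1 alternative, and none of those values passed either. With a pseudocount of 0.1 the Rhox5 difference of NTM from in vivo 8-cell embryos was 0.065, the in vivo 4-cell to 8-cell change of Rhox9 was 0.72 and its NTM minus in vivo difference was -0.55. Median-ratio scaling gave 0.020 for Rhox5 in NTM against NTC morulas and 0.23 for the in vivo 4-cell to 8-cell change of Rhox9, and scaling to nuclear reads gave 0.091 for Rhox5 in NTM against in vivo 8-cell embryos. Leaving out 1 library or replicate number gave, for Rhox5, -0.78 to 0.59 in NTM against in vivo 8-cell embryos and -0.54 to 1.74 for the NTM 4-cell to 8-cell change. The 4-cell to 8-cell change of Rhox5 less that of in vivo embryos was -0.35 to 3.37 in NTC and -2.92 to 0.48 in NTM embryos. For Rhox9 it gave -0.91 to 0.91 for the in vivo 4-cell to 8-cell change and -0.93 to 0.0090 from 8-cell to morula.

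Same-numbered libraries did not clearly deviate together over all genes (median r -0.0064, from -0.18 to 0.12 over 36 comparisons, each library closest to its own number in 2). Whether they shared a step of handling was not tested. The CC and MEF libraries of the same number had similar levels of Ptgs2 and Tnfaip6, as given above. The block moved the calls over all genes from 879 to 12 in NTC blastulas, from 70 to 9 in NTM blastulas, from 3 to 8 in NTC morulas and from 15 to 32 in NTM morulas. Counts of X-linked genes called higher ranged from 0 to 56 (main 17) in NTC and from 0 to 46 (main 2) in NTM blastulas over 12 alternatives. The calls of Acot9, Siah1b, Lamp2, Mospd1, Tceal9, Tceal8, Magt1, Lonrf3, Tet2 and Dpep3 were each lost under 2 to 8 of 12 alternatives and kept their direction in all. With 3 embryos a group and SD up to 2.28 on the log2 scale, Rhox5 differences before the morula stage are poorly resolved.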
